A study of Mus musculus with 24 samples.

Results

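The unloading response of Nfkb1-/- muscle was set against that of Bcl3-/- muscle, on 16 of the 24 arrays of the study. The groups were hind limb unloaded (HU) Nfkb1-/- mice, weight bearing (WB) Nfkb1-/- mice, HU Bcl3-/- mice and WB Bcl3-/- mice, with 4 mice and 4 arrays in each. All were males of 6 weeks at purchase, housed one to a cage, and unloading lasted 6 days. The Nfkb1-/- strain was B6;129P2-Nfkb1tm1Bal/J and the Bcl3-/- strain was FVB;129P2-Bcl3tm1Ver/J, so the 2 knockouts differed in background as well as in the deleted gene. Both deletions were present in every cell of the body from conception, in WB and HU mice alike. RNA came from whole gastrocnemius and plantaris muscles, and each of the 4 groups was compared by the intensity of probe sets on an Affymetrix GeneChip mouse array. The wild type arrays were left out. The question was which genes moved the same way with unloading in both knockouts and which moved in opposite directions.

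NF-kB is a family of dimeric transcription factors. Nfkb1 encodes p50, which binds NF-kB sites but carries no activation domain of its own, and Bcl3 encodes a nuclear co-activator that docks on p50 and p52 dimers. Both act in the nucleus and are known for a part in unloading atrophy, in which protein breakdown outpaces synthesis and fibres shrink. Unloading of hind limb muscle is also known for a loss of slow fibre proteins, of oxidative enzymes and of collagen production.

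The 2 knockouts were deposited on different intensity scales. Median intensities lay between 11.61 and 11.95 on the 8 Nfkb1-/- arrays and between 81.15 and 86.81 on the 8 Bcl3-/- arrays, a ratio of 7.3. Genotype, strain and scale go together and cannot be told apart, so levels are never compared between knockouts, and every result is a response, HU minus WB on the log2 scale within a knockout, or the difference between both responses. Whether the scales compress responses unequally was not tested. The SD of responses over all tested probe sets was 0.314 in Nfkb1-/- muscles and 0.292 in Bcl3-/- muscles, and the correlation of log2 WB means between the knockouts was 0.938. Markers of skeletal muscle were present, with 14 of 14 tested. The deletions could not be checked on the arrays. No listed probe set was named Nfkb1, and that of Bcl3 lay below the median of its array on every one of the 16 arrays, with 43.1 to 50.3 in HU and 42.5 to 56.6 in WB Bcl3-/- muscles. In whole muscle, fewer cells of a type and less RNA per cell cannot be told apart.

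Unloading changed probe sets in both knockouts, with a balance of directions that depended on the processing. Of 10618 probe sets tested with limma (Benjamini-Hochberg adjusted p under 0.05), 910 were higher in HU Nfkb1-/- muscles than in WB muscles (8.57% of those tested) and 1270 were lower (12.0%). In Bcl3-/- muscles 1556 were higher in HU (14.7%) and 444 were lower (4.18%). Higher calls made up 41.7% of all calls in Nfkb1-/- muscles and 77.8% in Bcl3-/- muscles, and with quantile normalization of the 16 arrays together these shares were 46.9% and 60.8%. Without the 4 arrays of lowest weight in the fit (Nfkb1-/- HU replicates 1 and 4, Bcl3-/- WB replicates 2 and 4) they were 58.6% and 59.4%, so the contrast in balance was not there. The numbers of calls, 2180 in Nfkb1-/- and 2000 in Bcl3-/- muscles, were 1482 and 2661 with 16 added to each intensity before taking log2. Over all tested probe sets the median response was -0.01 in Nfkb1-/- muscles and 0.08 in Bcl3-/- muscles.

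Where both knockouts responded, they nearly always moved the same way. A total of 601 probe sets passed the test in both, and 575 of them (95.7%) had the same direction. The shared calls comprised 382 higher probe sets of 292 genes (3.60% of those tested) and 193 lower probe sets of 153 genes (1.82%). The shared higher calls were 42.0% of the higher calls in Nfkb1-/- muscles and 24.6% of those in Bcl3-/- muscles, and the shared lower calls were 15.2% of the lower calls in Nfkb1-/- muscles and 43.5% of those in Bcl3-/- muscles. HU and WB arrays were apart in both knockouts for 284 of the shared higher probe sets (2.67% of those tested) and for 111 of the shared lower ones (1.05%), where 27.0% of all tested probe sets were apart in Nfkb1-/- and 21.7% in Bcl3-/- muscles. No array took part in both responses. Probe sets called higher in Nfkb1-/- muscles had a median response of 0.29 in Bcl3-/- muscles, with 90.2% above zero. Those called lower in Nfkb1-/- muscles had a median of -0.08 in Bcl3-/- muscles, with 64.6% below zero. Of all tested probe sets, 65.0% were above zero in Bcl3-/- muscles and 47.6% in Nfkb1-/- muscles. Probe sets called higher in Bcl3-/- muscles had a median of 0.15 in Nfkb1-/- muscles, with 78.0% above zero. For those called lower in Bcl3-/- muscles the median in Nfkb1-/- muscles was -0.35, with 85.6% below zero. Across the tested probe sets, which are not independent replicates, the 2 responses had a Pearson r of 0.467 and a Spearman rho of 0.395, and 60.0% had the same sign.

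Opposite calls were few. Only 26 probe sets (0.245%) passed in both knockouts with opposite signs, 7 of them higher in Nfkb1-/- and lower in Bcl3-/- muscles and 19 the reverse, and all 26 also passed the test of the difference between the responses. That test called 441 probe sets in all. The Nfkb1-/- response was above the Bcl3-/- response in 69 (0.650%), of which 45 had responses of opposite sign, and below it in 372 (3.50%), of which 313 had responses of opposite sign. This split depended on scaling, with 103 above and 153 below when the 16 arrays were quantile normalized together and 124 above and 215 below when that was done within each knockout. It depended on single arrays as well, with 68 differences in all without Nfkb1-/- WB replicate 4 and 889 without Bcl3-/- WB replicate 3. Without the same 4 arrays the balance turned round, to 307 above and 157 below.

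**Figure D1:**
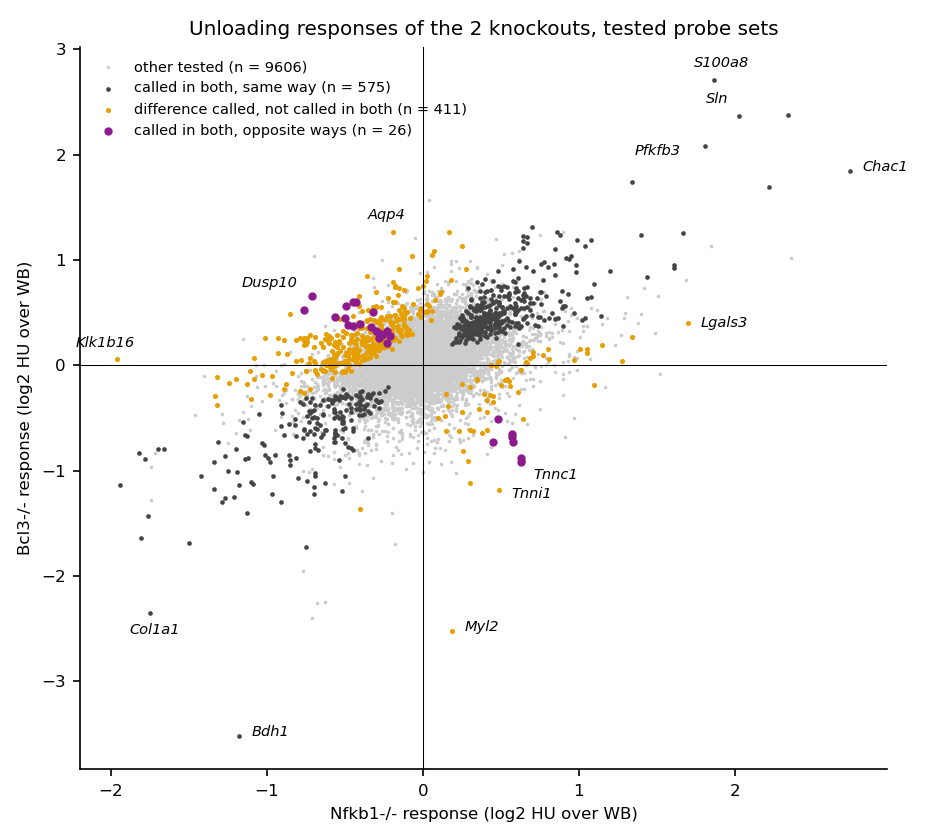
Response of each of 10618 tested probe sets in Nfkb1-/- muscles (horizontal axis) and in Bcl3-/- muscles (vertical axis), both as log2 HU over WB. The 575 probe sets called the same way lie along the rising diagonal, and the 26 called opposite ways form a small group of 7 below the horizontal axis and one of 19 above it.

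The promoters of shared and opposite genes were searched for letters of stress-responsive factors, because p50 and Bcl-3 act at NF-kB sites. The window from 250 bases before to 50 bases after the start in the RefSeq table (GRCm38.p6) was searched on both strands for GGGA, any 4 bases and CC, a form of the NF-kB site, and for TGATGNAA, a form of the site of ATF4, the factor of the amino acid stress response. The NF-kB letters stood in 22.9% of all promoters and in 30.7% of the promoters of tested genes. They stood in 27.1% of the 203 promoters found for genes called higher in both knockouts, in 31.0% of the 100 found for genes called lower in both, and in 3 of the 13 found for genes that went opposite ways. The ATF4 letters stood in 4.51% of all promoters and in 2.67% of those of tested genes, in 3.45% for genes higher in both, in 5 of the 100 for genes lower in both, and in 0 of those 13. A match is a run of letters and not a binding site, and the absence of one says nothing about binding. Promoters are printed for 3 genes, 1 from each pattern, with the matching letters in capitals. Each of the 3 genes has a match, which most promoters of these sets do not, so they do not stand for their sets.
Tpm3 encodes slow tropomyosin, higher in Nfkb1-/- and lower in Bcl3-/- muscles. It has 2 promoters in the table, of which the upstream one (chr3:90072401-90072700) held no match and the other is printed (chr3:90079271-90079570, plus strand, NF-kB letters from -213 and from -7). Which of the 2 gives rise to the slow form was not tested.
Tpm3: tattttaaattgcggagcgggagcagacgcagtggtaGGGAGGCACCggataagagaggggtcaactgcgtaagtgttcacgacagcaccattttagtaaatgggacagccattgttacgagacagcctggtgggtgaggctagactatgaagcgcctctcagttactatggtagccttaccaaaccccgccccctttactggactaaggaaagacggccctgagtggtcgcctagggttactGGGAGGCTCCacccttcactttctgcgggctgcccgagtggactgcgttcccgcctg
Chac1 is an enzyme that breaks down glutathione, higher in both knockouts (chr2:119350992-119351291, plus strand, ATF4 letters on the opposite strand, from -193).
Chac1: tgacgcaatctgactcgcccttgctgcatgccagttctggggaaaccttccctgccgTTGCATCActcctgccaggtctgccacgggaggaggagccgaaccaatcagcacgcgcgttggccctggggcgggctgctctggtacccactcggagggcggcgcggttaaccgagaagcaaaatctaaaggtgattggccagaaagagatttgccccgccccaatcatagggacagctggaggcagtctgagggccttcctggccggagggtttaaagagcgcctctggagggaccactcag
Serpinh1 is the collagen chaperone, lower in both knockouts (chr7:99353190-99353489, minus strand, NF-kB letters on the opposite strand, from -110).
Serpinh1: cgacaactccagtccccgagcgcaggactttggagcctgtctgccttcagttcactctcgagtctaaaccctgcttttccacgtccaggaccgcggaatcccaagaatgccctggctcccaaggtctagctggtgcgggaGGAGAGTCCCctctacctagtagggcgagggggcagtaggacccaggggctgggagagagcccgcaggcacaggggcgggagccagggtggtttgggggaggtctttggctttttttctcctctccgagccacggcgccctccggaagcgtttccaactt

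Slow fibre proteins were where the knockouts parted. Of the 14 tested genes of slow fibres, 5 rose and 1 fell in Nfkb1-/- muscles, against 9.02% and 12.0% of the 6610 genes tested, while 1 rose and 8 fell in Bcl3-/- muscles, against 13.9% and 4.31% of all genes. The median response of the list was 0.43 in Nfkb1-/- muscles and -0.69 in Bcl3-/- muscles, and over all genes the medians were -0.01 and 0.07. The difference between the responses was called for 6 of the 14, all with the Nfkb1-/- response above, against 0.726% of all genes above and 3.52% below, and 4 of them (Tnnc1, Myh7, Atp2a2 and Tpm3) were called in both knockouts with opposite signs, against 0.242% of all genes. Under the methods' t-test with Benjamini-Hochberg adjustment 1 gene of the list rose in Nfkb1-/- muscles, 8 fell in Bcl3-/- muscles and 0 went opposite ways, and 1 went opposite ways in separate fits and with no filter.

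Tnnc1, the troponin C of slow and cardiac muscle, had intensities of 456, 894, 761 and 704 in HU Nfkb1-/- muscles and of 301, 558, 432 and 531 in WB Nfkb1-/- muscles. It had 1601, 1972, 2156 and 1795 in HU Bcl3-/- muscles and 3479, 4204, 3323 and 3241 in WB Bcl3-/- muscles. In Nfkb1-/- muscles the first HU array lay among the WB arrays and the other 3 above them, and in Bcl3-/- muscles every HU array lay below every WB array. The response was 0.63 ± 0.20 in Nfkb1-/- muscles (SE, adjusted p = 0.034) and -0.92 ± 0.20 in Bcl3-/- muscles (adjusted p = 0.0063), and they differed by 1.55 ± 0.28 (adjusted p = 0.015).

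Myh7, the slow myosin heavy chain, followed the same pattern. Its intensities were 380, 775, 648 and 593 in HU Nfkb1-/- muscles and 252, 470, 402 and 472 in WB Nfkb1-/- muscles. They were 2638, 2920, 2958 and 2511 in HU Bcl3-/- muscles and 4554, 5163, 4582 and 4032 in WB Bcl3-/- muscles. Again only HU replicate 1 of Nfkb1-/- overlapped the WB arrays, and both Bcl3-/- groups were apart. The responses were 0.58 ± 0.20 in Nfkb1-/- muscles (adjusted p = 0.048) and -0.73 ± 0.20 in Bcl3-/- muscles (adjusted p = 0.02), a difference of 1.31 ± 0.28 (adjusted p = 0.024).

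Atp2a2, the calcium pump of slow sarcoplasmic reticulum, had 652, 833, 721 and 669 in HU Nfkb1-/- muscles and 369, 568, 514 and 502 in WB Nfkb1-/- muscles, with no overlap. It had 2583, 3301, 2506 and 2696 in HU Bcl3-/- muscles and 4525, 4759, 4212 and 3814 in WB Bcl3-/- muscles, again with no overlap. Its responses were 0.57 ± 0.13 in Nfkb1-/- muscles (adjusted p = 0.0057) and -0.65 ± 0.13 in Bcl3-/- muscles (adjusted p = 0.0043). All 4 probe sets of Atp2a2 were called lower in Bcl3-/- muscles and called for the difference, by 0.84 to 1.24. In Nfkb1-/- muscles 2 of them were not called (0.23 and 0.30, adjusted p = 0.13 and 0.084). Tpm3, with 1 of its promoters printed above, was higher by 0.45 ± 0.14 in HU Nfkb1-/- muscles (adjusted p = 0.035) and lower in HU Bcl3-/- muscles, with a response of -0.73 ± 0.14 (adjusted p = 0.004). A second probe set of Tpm3 was called for the difference (1.02) and lower in Bcl3-/- muscles (-0.64). It was not called in Nfkb1-/- muscles (0.38, adjusted p = 0.08). The 2 other probe sets, with responses between -0.12 and -0.08, were not called for anything.

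Myl2 and Tnni1, the slow regulatory light chain and slow troponin I, fell in Bcl3-/- muscles without a call in Nfkb1-/- muscles. Myl2 read 456, 1695, 1436 and 1367 in HU Nfkb1-/- muscles and 682, 1135, 939 and 1225 in WB Nfkb1-/- muscles, where HU replicate 1 was below all WB arrays and the other 3 HU arrays were above them. It read 784, 718, 1177 and 845 in HU Bcl3-/- muscles and 5052, 5015, 4897 and 4878 in WB Bcl3-/- muscles, far apart. The responses were 0.19 ± 0.30 (adjusted p = 0.7) in Nfkb1-/- and -2.52 ± 0.30 (adjusted p = 1.6e-04) in Bcl3-/- muscles. The difference was 2.71 ± 0.43 (adjusted p = 0.011), the largest above zero of all probe sets called for the difference. Tnni1 responded by 0.49 ± 0.29 in Nfkb1-/- muscles (adjusted p = 0.25) and by -1.18 ± 0.29 in Bcl3-/- muscles (adjusted p = 0.013), a difference of 1.67 ± 0.41 (adjusted p = 0.037) that lost its call under 15 of the alternatives, with values of 1.48 to 1.80 without single arrays.

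Not every gene of the list went this way. Myl3, the slow essential light chain, fell in both knockouts, with responses of -0.54 ± 0.19 in Nfkb1-/- muscles (adjusted p = 0.048) and -0.90 ± 0.19 in Bcl3-/- muscles (adjusted p = 0.0054). Its other probe sets were called lower in Bcl3-/- muscles but not in Nfkb1-/- muscles (-0.42 and -0.57, adjusted p = 0.065 and 0.093). With 1 array left out, its call in Nfkb1-/- muscles stayed only without Nfkb1-/- HU replicate 2 or Bcl3-/- WB replicate 2. Sln, which encodes sarcolipin, an inhibitor of the sarcoplasmic calcium pumps, rose in both. Its intensities were 75.8, 67.9, 44.0 and 108 in HU Nfkb1-/- muscles and 19.0, 15.1, 14.3 and 21.1 in WB Nfkb1-/- muscles. They were 529, 570, 744 and 847 in HU Bcl3-/- muscles and 113, 140, 135 and 124 in WB Bcl3-/- muscles. The groups were far apart in each knockout, with responses of 2.03 ± 0.21 (adjusted p = 8.7e-05) and 2.37 ± 0.21 (adjusted p = 2.3e-05) that were not called different (difference -0.34 ± 0.30, adjusted p = 0.51).

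**Figure D2:**
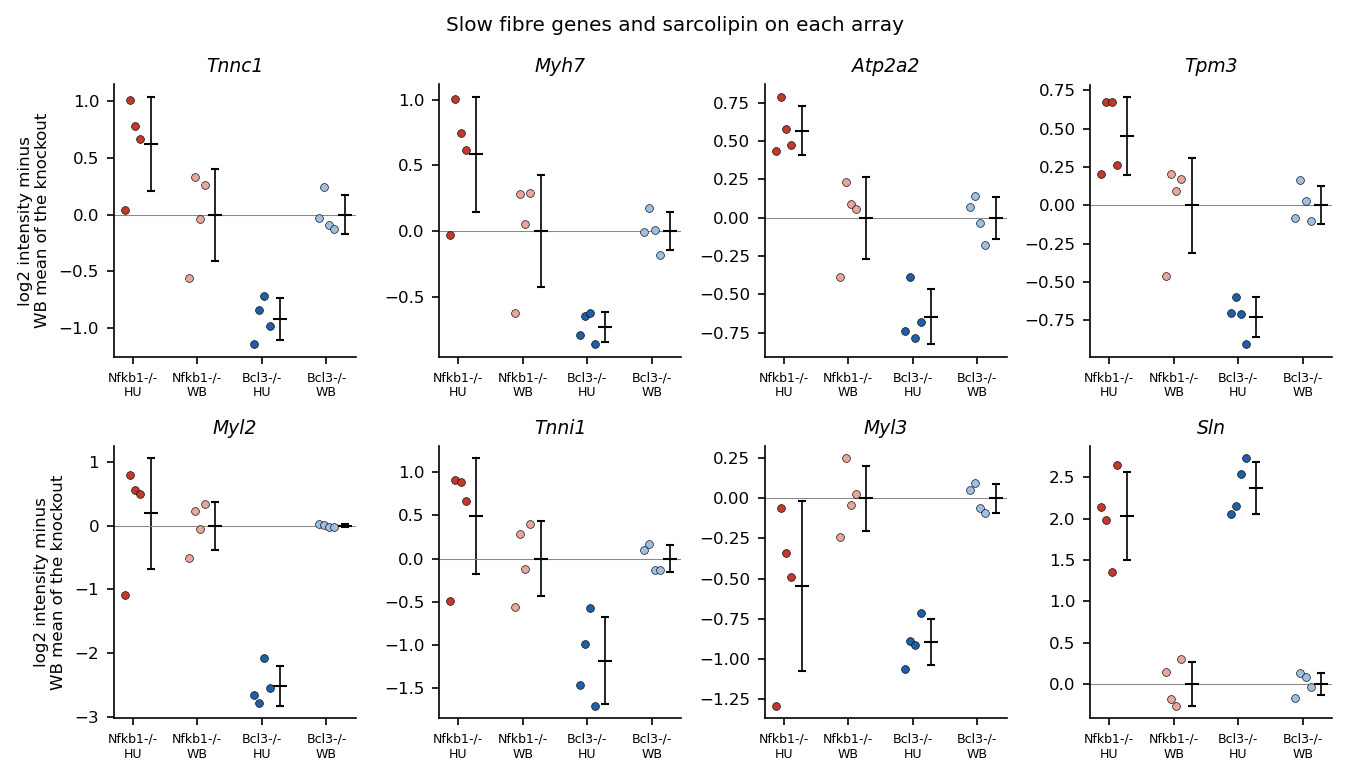
Log2 intensity of 8 genes on each array, minus the WB mean of the same knockout, with HU left of WB, Nfkb1-/- in red and Bcl3-/- in blue. Dashes and bars are means and SDs (n = 4). In Tnnc1, Myh7, Atp2a2, Tpm3, Myl2 and Tnni1 all HU Bcl3-/- arrays lie below zero and 3 or 4 of the HU Nfkb1-/- arrays lie above it, Myl3 is lower in both knockouts and Sln is higher in both.

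The arrays of Nfkb1-/- muscle varied together over the slow fibre list. The mean log2 level of the 14 genes, relative to the WB mean, was -0.20, 0.65, 0.60 and 0.56 on the HU arrays and -0.32, 0.14, -0.03 and 0.21 on the WB arrays of Nfkb1-/- mice, and -0.68, -0.58, -0.14 and -0.73 on the HU arrays and 0.03, 0.05, 0.03 and -0.11 on the WB arrays of Bcl3-/- mice. HU and WB arrays overlapped in Nfkb1-/- mice through HU replicate 1, and were apart in Bcl3-/- mice. A larger share of slow fibres in the dissected muscle and more of these transcripts in each fibre cannot be told apart. Leaving out 1 array at a time gave 2 (without Nfkb1-/- HU replicate 2 or 3 or WB replicate 1) to 9 (without HU replicate 1) slow fibre genes called higher in Nfkb1-/- muscles, 7 to 9 called lower in Bcl3-/- muscles, 1 to 7 called in opposite directions and 4 to 7 called for the difference, always with Nfkb1-/- above. The rise of Tnnc1 in Nfkb1-/- muscles lost its call without HU replicate 2, 3 or 4 or without WB replicate 1 or 3 (log2 0.44 to 0.61), while its difference between the knockouts kept its call under every alternative that tests it. The rise of Myh7 in Nfkb1-/- muscles lost its call under 21 alternatives, that of Tpm3 under 9 and that of Atp2a2 under 1.

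Fast fibre proteins did not show the contrast. Of 15 tested, 1 rose and 1 fell in each knockout. Of all genes, 9.02% rose and 12.0% fell in Nfkb1-/- muscles, and 13.9% rose and 4.31% fell in Bcl3-/- muscles. The medians of the 15 were -0.10 and 0.01. Mylk2, the myosin light chain kinase of skeletal muscle, was the 1 that rose in Nfkb1-/- muscles, by 1.05 ± 0.17 (adjusted p = 7.1e-04) against 0.16 ± 0.17 in Bcl3-/- muscles (adjusted p = 0.53), and was called for the difference (0.89 ± 0.24, adjusted p = 0.047), a call lost under 19 of the alternatives.

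Other genes rose in Nfkb1-/- muscles and not in Bcl3-/- muscles. Mtm1, the lipid phosphatase myotubularin, was called in both, higher by 0.48 ± 0.12 in Nfkb1-/- muscles (adjusted p = 0.012) and with a response of -0.51 ± 0.12 in Bcl3-/- muscles (adjusted p = 0.01), although its second probe set read 0.28 and 0.11 with no call. Lgals3, the lectin galectin-3, read 39.0, 62.2, 64.3 and 87.9 in HU Nfkb1-/- muscles and 18.7, 15.2, 20.8 and 20.6 in WB Nfkb1-/- muscles, and 169, 185, 245 and 132 in HU Bcl3-/- muscles and 139, 164, 129 and 112 in WB Bcl3-/- muscles. The Nfkb1-/- groups were apart and the Bcl3-/- groups overlapped. It rose by 1.70 ± 0.21 in Nfkb1-/- muscles (adjusted p = 1.6e-04), against 0.40 ± 0.21 in Bcl3-/- muscles (adjusted p = 0.19), a difference of 1.30 ± 0.30 (adjusted p = 0.028). Without single arrays (any Nfkb1-/- WB array, Bcl3-/- WB replicate 2, Bcl3-/- HU replicate 1 or 4) the difference lost its call, at 1.16 to 1.35 and adjusted p of 0.05 to 0.059. Lgals3 is also a gene of macrophages. It was the only one of the 15 macrophage markers tested that was called in Nfkb1-/- muscles (1 other, C1qc, fell in Bcl3-/- muscles), where their mean level relative to WB was 0.17, -0.14, -0.08 and 0.69 on the HU arrays and -0.19 to 0.16 on the WB arrays, and their part in its rise was not tested.

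Some genes of the neuromuscular junction and of denervation also differed. Of 13 tested genes of the neuromuscular junction and denervation list, 4 rose and 1 fell in Nfkb1-/- muscles (9.02% and 12.0% of all genes did) and 1 rose and 1 fell in Bcl3-/- muscles (13.9% and 4.31% of all genes). The difference was called for 3, all above, against 0.726% of all genes, and for 0 to 3 with 1 array left out. The medians of the list were 0.25 and 0.09, against -0.01 and 0.07 over all genes. In each knockout 7 of the 13 had a response above zero. Gadd45a, a growth arrest gene that is strongly induced in denervated muscle, read 45.7, 86.1, 78.5 and 57.7 in HU Nfkb1-/- muscles and 24.1 to 27.0 in WB Nfkb1-/- muscles, with no overlap. In Bcl3-/- mice it read 370, 462, 474 and 359 in HU muscles and 278, 434, 336 and 343 in WB muscles, with overlap. The responses were 1.34 ± 0.17 (adjusted p = 1.9e-04) and 0.27 ± 0.17 (adjusted p = 0.29), and the difference was 1.07 ± 0.24 (adjusted p = 0.028). The acetylcholine receptor subunits Chrne and Chrnb1 rose by 0.45 ± 0.13 (adjusted p = 0.025) and 0.90 ± 0.09 (adjusted p = 8.7e-05) in Nfkb1-/- muscles. In Bcl3-/- muscles Chrne had a response of -0.35 ± 0.13 (adjusted p = 0.074) and Chrnb1 rose by 0.37 ± 0.09 (adjusted p = 0.013), with differences of 0.80 ± 0.19 and 0.53 ± 0.13 (adjusted p = 0.03 and 0.04). The difference for Chrnb1 lost its call under 16 of the alternatives.

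Among the other large differences above zero, Pde4b, a phosphodiesterase that degrades cyclic AMP, rose by 1.10 ± 0.18 in Nfkb1-/- muscles (adjusted p = 7.1e-04), with a response of -0.19 ± 0.18 in Bcl3-/- muscles (adjusted p = 0.47). Its second probe set rose in both, by 1.04 and 0.45, and was not called for the difference. Tmem140 and Mustn1, a small nuclear protein of muscle and skeleton, rose by 1.28 ± 0.21 and 1.15 ± 0.17 in Nfkb1-/- muscles, against 0.04 and 0.19 with no call in Bcl3-/- muscles, and the difference for Mustn1 lost its call under 15 of the alternatives. Bdh1, the mitochondrial enzyme that makes and uses the ketone body hydroxybutyrate, fell in both. It read 15.0, 74.9, 64.6 and 53.7 in HU Nfkb1-/- muscles and 74.3, 99.1, 136 and 102 in WB Nfkb1-/- muscles, and 20.1, 36.1, 36.8 and 36.5 in HU Bcl3-/- muscles and 374, 372, 372 and 329 in WB Bcl3-/- muscles. Its fall was steeper in Bcl3-/- muscles by the test of the difference (2.34 ± 0.52, adjusted p = 0.026). The responses were -1.18 ± 0.37 in Nfkb1-/- muscles (adjusted p = 0.032) and -3.52 ± 0.37 in Bcl3-/- muscles (adjusted p = 3.8e-05). It passed the intensity filter in Bcl3-/- mice through the WB arrays, with every HU value below the median of its array. The sizes of that fall and of the difference are therefore uncertain. The fall in Nfkb1-/- muscles lost its call under 8 of the alternatives, 3 of them leaving out 1 WB array, and was -0.53 (adjusted p = 0.12) without the 4 arrays of lowest weight, and the difference lost its call under 4. Slc9a3r2, a scaffold protein of ion exchangers, fell only in Bcl3-/- muscles by the test, with responses of 0.30 ± 0.23 and -1.12 ± 0.23 (adjusted p = 0.38 and 0.0051) and a difference of 1.42 ± 0.33 (adjusted p = 0.028), while its 4 other probe sets were not called for the difference.

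The 19 probe sets of the reverse pattern, lower in HU Nfkb1-/- muscles and higher in HU Bcl3-/- muscles, included those of Dusp10, Taok1, Wnk1 and Apbb2. Dusp10, a phosphatase that switches off the stress kinases p38 and JNK, read 32.7, 42.4, 60.9 and 36.1 in HU Nfkb1-/- muscles and 78.9, 67.5, 71.0 and 57.5 in WB Nfkb1-/- muscles, and 307, 271, 314 and 365 in HU Bcl3-/- muscles and 218, 236, 175 and 170 in WB Bcl3-/- muscles. One HU Nfkb1-/- array overlapped the WB arrays and the Bcl3-/- groups were apart. The responses were -0.71 ± 0.17 (adjusted p = 0.0074) and 0.66 ± 0.17 (adjusted p = 0.014), and they differed by -1.37 ± 0.24 (adjusted p = 0.013). Taok1, a kinase upstream of p38, read 128, 128, 125 and 119 in HU Nfkb1-/- muscles and 157, 185, 176 and 159 in WB Nfkb1-/- muscles. In Bcl3-/- mice it read 327, 294, 301 and 285 in HU muscles and 201, 158, 274 and 179 in WB muscles. Neither pair of groups overlapped, and the responses were -0.43 ± 0.13 (adjusted p = 0.023) and 0.60 ± 0.13 (adjusted p = 0.0054). Of the 2 other probe sets of Taok1, 1 was called for the difference (-0.61) and 1 was not (0.17).

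Wnk1, a kinase that governs ion cotransporters, responded by -0.76 ± 0.16 in Nfkb1-/- muscles (adjusted p = 0.0043) and by 0.53 ± 0.16 in Bcl3-/- muscles (adjusted p = 0.033), and without the Bcl3-/- WB replicates 2 and 4 that response in Bcl3-/- muscles was 0.30 (adjusted p = 0.31), 1 of 13 alternatives under which it lost its call. Its second probe set, at -0.26 and 0.03, was not called for the difference. Apbb2, an adaptor of the amyloid precursor protein, responded by -0.56 ± 0.12 and 0.46 ± 0.12 (adjusted p = 0.0036 and 0.015), and both of its probe sets were called for the difference, each by -1.02. The other probe set of Apbb2 was not called in Bcl3-/- muscles (0.29, adjusted p = 0.082), and the call there was lost under 7 of the alternatives, with 0.26 under array weights and 0.29 without the Bcl3-/- WB replicates 2 and 4. The repressor Trps1 (-0.45 and 0.60), the RNA-binding protein vigilin of Hdlbp (-0.49 and 0.56), the exocyst subunit Exoc7 (-0.48 and 0.38), Tmem167 (-0.45 and 0.37), Ebpl (-0.40 and 0.39) and Tlcd4 (-0.33 and 0.36) were called in the same way, lower in Nfkb1-/- and higher in Bcl3-/- muscles. Several calls in Nfkb1-/- muscles were near the threshold, with adjusted p just under 0.05 for Trps1, 0.046 for Hdlbp, 0.041 for Tlcd4 and 0.037 for Ebpl. That of Ebpl in Bcl3-/- muscles was 0.044. HU and WB arrays overlapped in both knockouts for Hdlbp, and in Bcl3-/- muscles for Trps1 and Exoc7. For Hdlbp the 3 other probe sets, with responses between -0.07 and 0.13, were not called in either knockout, and the 2 others of Tmem167 (-0.27 and 0.10, -0.37 and 0.08) were called neither in Bcl3-/- muscles nor for the difference.

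Other large differences below zero were called in 1 knockout. Klk1b16, a kallikrein of a family of near-identical genes whose reads on a probe set may not be told apart, read 13.8, 5.83, 8.36 and 9.70 in HU Nfkb1-/- muscles and 25.1, 42.3, 38.9 and 36.7 in WB Nfkb1-/- muscles. It read 402, 430, 415 and 181 in HU Bcl3-/- muscles and 212, 337, 370 and 416 in WB Bcl3-/- muscles. It fell in Nfkb1-/- muscles alone by the test (-1.96 ± 0.29, adjusted p = 4.6e-04, against 0.06 ± 0.29), a difference of -2.02 ± 0.42 (adjusted p = 0.022). It passed the intensity filter in Nfkb1-/- mice through the WB arrays, with 3 of the 4 HU values below the median of their array, so the size of the fall is uncertain. Aqp4, the water channel of the fast fibre membrane, read 70.1, 49.1, 67.5 and 50.4 in HU and 72.9, 71.1, 59.4 and 64.0 in WB Nfkb1-/- muscles, which overlapped. It read 177, 185, 175 and 171 in HU and 86.6, 51.4, 107 and 61.1 in WB Bcl3-/- muscles, where it rose and the arrays were apart. The responses were -0.19 ± 0.18 (adjusted p = 0.49) in Nfkb1-/- and 1.27 ± 0.18 (adjusted p = 5.8e-04) in Bcl3-/- muscles, and both probe sets of Aqp4 were called for the difference, by -1.46 and -1.12.

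Srsf3, a splicing factor, fell in Nfkb1-/- muscles on all 5 of its probe sets (-1.01 to -0.34) and had responses of -0.02 to 0.26 with no call in Bcl3-/- muscles, and 3 of the 5 were called for the difference (-1.27 to -0.67). Sspn, sarcospan of the dystrophin complex, fell, with responses of -0.85 ± 0.19 in Nfkb1-/- muscles (adjusted p = 0.0055), with 0.49 ± 0.19 in Bcl3-/- muscles (adjusted p = 0.085), and its second probe set (-0.78 and -0.07) was not called for the difference. Azin1, which activates polyamine synthesis, Ccnd2, a cyclin of the G1 phase, and Ighm, the heavy chain of IgM, had responses of -0.93, -0.89 and -1.08 in Nfkb1-/- muscles, all called lower, and of 0.26, 0.24 and 0.07 in Bcl3-/- muscles, none called. A second probe set of Ighm was higher in Bcl3-/- muscles (0.55) and also called for the difference. The 4 other probe sets of Ccnd2 had responses of -0.26 to -0.13 in Bcl3-/- muscles and were not called for the difference. Norad, a long noncoding RNA, had responses of -0.36 (adjusted p = 0.083) and 0.85 ± 0.14 (adjusted p = 0.0015), and a second probe set (0.10 and 0.13) was not called. The interferon-induced genes Bst2 and Irgm1 fell in Nfkb1-/- muscles, with responses of -0.81 ± 0.12 and -0.28 ± 0.09 (adjusted p = 4.2e-04 and 0.029), with 0.04 and 0.24 in Bcl3-/- muscles, neither called. They were the 2 of 11 tested interferon genes called for the difference, where 3.52% of all genes were called below. In Nfkb1-/- muscles 3 of the 11 fell, against 12.0% of all genes. With 1 array left out these counts were 1 to 3 and 2 to 4.

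**Figure D3:**
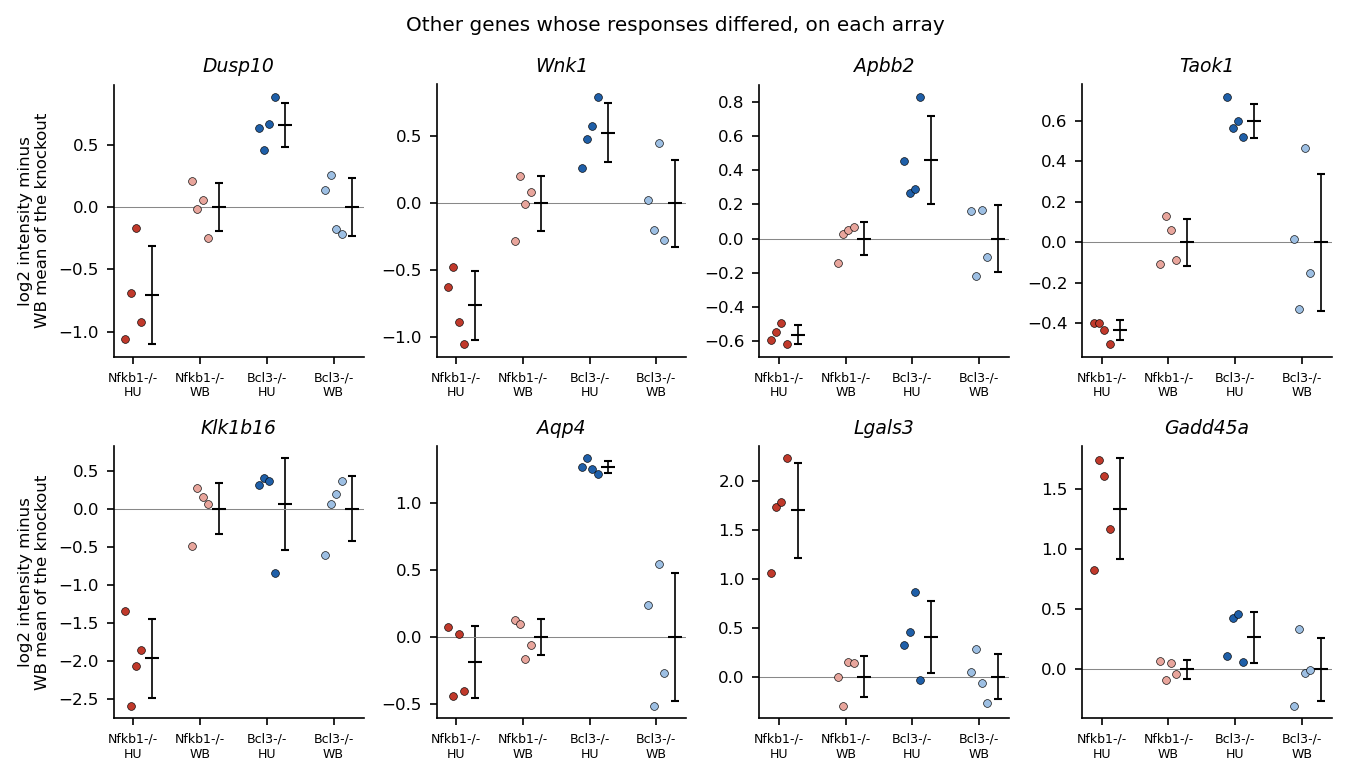
Log2 intensity of 8 further genes on each array, minus the WB mean of the same knockout, with HU left of WB, means as dashes and SDs as bars (n = 4). Dusp10, Wnk1, Apbb2 and Taok1 are lower in HU Nfkb1-/- and higher in HU Bcl3-/- muscles, Klk1b16 is lower in HU Nfkb1-/- muscles, Aqp4 is higher in HU Bcl3-/- muscles, and Lgals3 and Gadd45a are higher in HU Nfkb1-/- muscles.

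The genes that rose most in both knockouts included Chac1, Sln, Pfkfb3, Fbp2, Tmem100 and Klf10. Chac1, a glutathione-degrading enzyme switched on by ATF4 whose promoter is printed above, read 366, 840, 576 and 325 in HU Nfkb1-/- muscles and 50.5, 42.6, 143 and 93.9 in WB Nfkb1-/- muscles. It read 2545, 2018, 1945 and 1392 in HU Bcl3-/- muscles and 709, 1018, 307 and 386 in WB Bcl3-/- muscles. The groups were apart in both, with responses of 2.74 ± 0.41 (adjusted p = 4.4e-04) and 1.84 ± 0.41 (adjusted p = 0.0073). Pfkfb3, which makes a fructose bisphosphate that activates glycolysis, rose by 1.81 ± 0.25 and 2.08 ± 0.25 (adjusted p = 3.3e-04 and 1.8e-04). Its second probe set rose in Nfkb1-/- muscles (1.69) and was not called in Bcl3-/- muscles (0.81, adjusted p = 0.11). Fbp2, the muscle fructose bisphosphatase, which acts on a different fructose bisphosphate, rose by 1.34 ± 0.14 and 1.74 ± 0.14 (adjusted p = 8.7e-05 and 5.5e-06). Fbp2 read 331, 375, 462 and 288 in HU and 139, 157, 156 and 119 in WB Nfkb1-/- muscles, and 1425, 1517, 1639 and 1141 in HU and 428, 424, 443 and 406 in WB Bcl3-/- muscles, far apart in each.

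Tmem100, a membrane protein induced by BMP signals, rose by 2.34 ± 0.37 in Nfkb1-/- and 2.38 ± 0.37 in Bcl3-/- muscles (adjusted p = 6.3e-04 and 0.0011). The transcription factors Klf10 (1.67 and 1.26), of the TGF-beta response, and Bhlhe40 (1.08 and 1.19), a repressor tied to the circadian clock, and the methyltransferase Inmt (2.22 and 1.69) also rose in both. Ahnak, a giant scaffold protein, rose on all 4 of its probe sets in Nfkb1-/- muscles and on 3 in Bcl3-/- muscles. Of the 10 shared genes with the largest smaller response, none was called for the difference. S100a8, a calcium-binding protein of neutrophils, rose by 1.87 ± 0.35 (adjusted p = 0.0019) and 2.71 ± 0.35 (adjusted p = 3.5e-04). All its WB values (5.79 to 11.7 in Nfkb1-/- and 27.1 to 44.9 in Bcl3-/- muscles) lay below the median of their array, so that it passed the intensity filter only through the HU arrays where it was high, and the size of the rise is uncertain. Ahnak, Col11a1 and Clec11a in Nfkb1-/- muscles, and Bdh1 and Norad in Bcl3-/- muscles, likewise lay above the median on 3 or 4 arrays of one group and on 0 or 1 of the other. S100a8 was the 1 of 16 neutrophil markers on the array that passed the intensity filter, so the others cannot say whether neutrophils moved with it, and that was not tested.

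Collagen and the genes that fold and carry it fell in both knockouts. Of 31 tested genes of collagen and matrix, 15 fell in Nfkb1-/- and 17 in Bcl3-/- muscles, 11 of them in both against 1.98% of all genes, none rose, and none was called for the difference. The median responses were -0.48 and -0.64. Without Bcl3-/- HU replicate 1 the counts in Bcl3-/- muscles and in both were 9 and 7. Under the methods' t-test with Benjamini-Hochberg adjustment 5 fell in Nfkb1-/- and 4 in Bcl3-/- muscles, 1 in both. Col1a1, which encodes a chain of type I collagen, read 357, 109, 384 and 477 in HU Nfkb1-/- muscles and 1033, 956, 830 and 1129 in WB Nfkb1-/- muscles. In Bcl3-/- mice it read 1013, 782, 802 and 1772 in HU muscles and 7239, 9284, 4447 and 2520 in WB muscles. All HU arrays were below all WB arrays, with responses of -1.75 ± 0.42 (adjusted p = 0.0083) and -2.35 ± 0.42 (adjusted p = 0.0025). A second probe set of Col1a1 fell in Bcl3-/- muscles (-1.70) and had -0.18 with no call in Nfkb1-/- muscles.

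Serpinh1, the collagen chaperone whose promoter is printed above, fell, with responses of -1.21 ± 0.23 and -1.25 ± 0.23 (adjusted p = 0.0021 and 0.003). Col1a2 (-1.81 and -1.64), Col6a2 (-1.29 and -1.30) and Col11a1 (-1.27 and -1.26) fell in both, with differences of -0.17 ± 0.59, 0.01 ± 0.35 and -0.01 ± 0.35, none called. A second probe set of Col1a2 fell in Nfkb1-/- muscles (-1.25) and was not called in Bcl3-/- muscles (-0.74). Ecrg4, a precursor of secreted peptides, fell, with responses of -1.76 ± 0.23 and -1.43 ± 0.23, and the secreted factor Clec11a fell in both as well (adjusted p = 7.1e-04 and 0.0047). Tendon markers moved with this group, 6 of 11 falling and 1 rising in Nfkb1-/- muscles, against 12.0% and 9.02% of all genes. In Bcl3-/- muscles 5 of these markers fell, against 4.31% of all genes, and 4 fell in both, against 1.98%. Their mean level relative to WB was -0.95 to -0.40 on the HU and -0.06 to 0.12 on the WB arrays of Nfkb1-/- mice, and -0.86 to -0.12 on the HU and -0.23 to 0.12 on the WB arrays of Bcl3-/- mice. Tnmd, the defining tendon gene tenomodulin, fell, with responses of -1.27 ± 0.19 and -0.86 ± 0.19 (adjusted p = 4.2e-04 and 0.0068). The part of tendon in the fall of collagen was not tested.

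Genes of oxidative metabolism were called lower in both knockouts, and those of oxidative phosphorylation mainly in Nfkb1-/- muscles. Of 49 tested subunits of oxidative phosphorylation, 28 fell in Nfkb1-/- and 7 in Bcl3-/- muscles, against 12.0% and 4.31% of all genes. In both knockouts 4 fell, against 1.98% of all genes, and none rose in either. The medians were -0.24 and -0.07, and no member was called for the difference (0 to 5 under the alternatives), so the larger count is not shown to be a larger response. The count in Bcl3-/- muscles was 12 when the 16 arrays were quantile normalized together and 2 without WB replicate 1, HU replicate 1 or HU replicate 3 of Bcl3-/-, in a separate fit and with the replicate block. Of 40 enzymes of the citrate cycle and fatty acid oxidation, 17 fell in Nfkb1-/- and 11 in Bcl3-/- muscles, against 12.0% and 4.31% of all genes. In Bcl3-/- muscles 1 rose, and 4 fell in both knockouts, against 1.98% of all genes. Without single arrays these counts were 11 to 18 (11 without Nfkb1-/- HU replicate 4), 6 to 12 (6 without Bcl3-/- WB replicate 1, HU replicate 1 or HU replicate 3) and 2 to 6. Hadh, of fatty acid oxidation, fell, with responses of -0.61 ± 0.09 and -0.32 ± 0.09 (adjusted p = 3.7e-04 and 0.019). Fabp3, the fatty acid carrier of oxidative fibres, read 280, 669, 597 and 473 in HU and 950, 1046, 1131 and 1086 in WB Nfkb1-/- muscles, and 1869, 2370, 1968 and 2633 in HU and 5831, 5232, 6112 and 5894 in WB Bcl3-/- muscles. It fell, with responses of -1.13 ± 0.19 and -1.40 ± 0.19 (adjusted p = 0.001 and 5.1e-04). Oxct1, which lets mitochondria burn ketone bodies, fell on all 4 of its probe sets in both knockouts, with responses of -1.09 to -0.70 in Nfkb1-/- and of -1.15 to -0.81 in Bcl3-/- muscles. Fabp3 and Oxct1 fell in Nfkb1-/- muscles where Tnnc1, Myh7 and Atp2a2 of the slow fibre apparatus rose.

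Chaperones fell and parts of the translation machinery rose. Of 29 heat shock and folding genes, 9 fell and 1 rose in Nfkb1-/- muscles and 8 fell in Bcl3-/- muscles (5 without Bcl3-/- HU replicate 1), 4 falling in both. Of all genes, 12.0% fell and 9.02% rose in Nfkb1-/- muscles, 4.31% fell in Bcl3-/- muscles and 1.98% fell in both. Dnaja1, a co-chaperone of Hsp70, fell, with responses of -0.69 ± 0.12 and -1.02 ± 0.12 (adjusted p = 8.7e-04 and 9.4e-05), and Hsp90aa1, the inducible Hsp90, with -0.45 ± 0.11 and -0.80 ± 0.11 (adjusted p = 0.0078 and 4.5e-04). Another probe set of Hsp90aa1 fell in Bcl3-/- muscles (-0.74) without a call in Nfkb1-/- muscles (-0.35). A further one, at -0.47 in each knockout, was not called. The exception was Hspb3, a small heat shock protein of muscle, with -0.73 ± 0.13 in Nfkb1-/- muscles (adjusted p = 0.0011) and 0.02 ± 0.13 in Bcl3-/- muscles (adjusted p = 0.91), the only one of the list called for the difference (-0.76, adjusted p = 0.032). Actc1, the cardiac actin of immature fibres, also fell in both, with responses of -1.94 ± 0.29 and -1.14 ± 0.29 (adjusted p = 4.4e-04 and 0.014).

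Of 29 cytosolic ribosomal proteins, 6 rose in Nfkb1-/- and 17 in Bcl3-/- muscles, 5 in both against 3.57% of all genes, and none fell or was called for the difference. The medians were 0.14 and 0.22. Rps25 rose by 0.59 ± 0.15 in each (adjusted p = 0.013 and 0.017). Of 27 translation factors, 10 rose and 2 fell in Nfkb1-/- muscles and 12 rose in Bcl3-/- muscles, 6 rising in both. Beside both lists, 9.02% of all genes rose and 12.0% fell in Nfkb1-/- muscles. In Bcl3-/- muscles 13.9% of all genes rose, and 3.57% rose in both knockouts. Without Bcl3-/- HU replicate 1, 10 ribosomal proteins and 7 translation factors rose in Bcl3-/- muscles, and without Nfkb1-/- HU replicate 2 or WB replicate 1, 6 translation factors rose in Nfkb1-/- muscles. Without the Bcl3-/- WB replicates 2 and 4, 5 ribosomal proteins and 6 translation factors rose in Bcl3-/- muscles. Eif4ebp1, the repressor of cap-dependent translation, read 155, 347, 332 and 247 in HU and 149, 150, 167 and 143 in WB Nfkb1-/- muscles, where 1 HU array overlapped the WB arrays. In Bcl3-/- mice it read 1816, 1630, 2149 and 1332 in HU and 818, 919, 889 and 885 in WB muscles, with no overlap. It rose by 0.76 ± 0.19 and 0.96 ± 0.19 (adjusted p = 0.012 and 0.0047).

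Some genes of protein breakdown were called. Of 28 tested genes of ubiquitin ligation in atrophy, 7 rose in Nfkb1-/- and 6 in Bcl3-/- muscles, against 9.02% and 13.9% of all genes, 3 in both against 3.57%, and none fell. With 1 array left out these counts were 1 (without Nfkb1-/- HU replicate 2) to 10 (without Nfkb1-/- HU replicate 1), 2 (without Bcl3-/- HU replicate 3 or WB replicate 4) to 8, and 1 to 6. Fbxo9, the substrate receptor of a ubiquitin ligase, rose by 0.87 ± 0.14 and 0.45 ± 0.14 (adjusted p = 6.3e-04 and 0.032). Map1lc3a, which coats autophagosomes, rose by 0.79 ± 0.15 and 0.66 ± 0.15 (adjusted p = 0.0024 and 0.0093). Of 37 proteasome genes, 2 rose and 4 fell in Nfkb1-/- muscles and 5 rose in Bcl3-/- muscles, no larger shares than the 9.02%, 12.0% and 13.9% of all genes. In growth signalling, Pik3r1, the regulatory subunit of PI3-kinase, rose in both by 1.44 ± 0.18 and 0.84 ± 0.18 (adjusted p = 1.5e-04 and 0.0057), and Irs1, the insulin receptor substrate, fell, with responses of -0.82 ± 0.18 and -0.57 ± 0.18 (adjusted p = 0.0055 and 0.04). A second probe set of Pik3r1 rose in Nfkb1-/- muscles (0.64) and was not called in Bcl3-/- muscles (0.20, adjusted p = 0.21). Acvr2b, the activin receptor that binds myostatin, rose by 0.64 ± 0.17 and 1.18 ± 0.17 (adjusted p = 0.015 and 6.2e-04), and the clock regulators Rora (0.64 and 1.11) and Nr1d1 (0.86 and 1.27) rose in both as well.

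Of 18 genes known to respond to glucocorticoids, 5 rose and 1 fell in Nfkb1-/- muscles and 1 fell in Bcl3-/- muscles, with medians of 0.56 and -0.02, where 9.02% of all genes rose and 12.0% fell in Nfkb1-/- and 4.31% fell in Bcl3-/- muscles. The mean level of the list relative to WB was 0.02, 0.48, 0.94 and 0.20 on the HU and 0.12, 0.17, 0.30 and -0.59 on the WB arrays of Nfkb1-/- mice, which overlapped. Without HU replicate 3 or WB replicate 4 of Nfkb1-/-, 1 gene rose there. None was called for the difference. Of the NF-kB family, its inhibitors, kinases and targets, 9 of the 26 on the array passed the intensity filter. Only Birc3, an inhibitor of apoptosis induced by NF-kB, was called, in Nfkb1-/- muscles (0.26 ± 0.09, adjusted p = 0.046, against 0.17 ± 0.09 in Bcl3-/- muscles), and it lost that call under 24 of the alternatives. The responses of the other 8, among them Rela, Nfkb2 and Nfkbia, lay between -0.23 and 0.34 in Nfkb1-/- and between -0.33 and 0.18 in Bcl3-/- muscles.

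**Figure D4:**
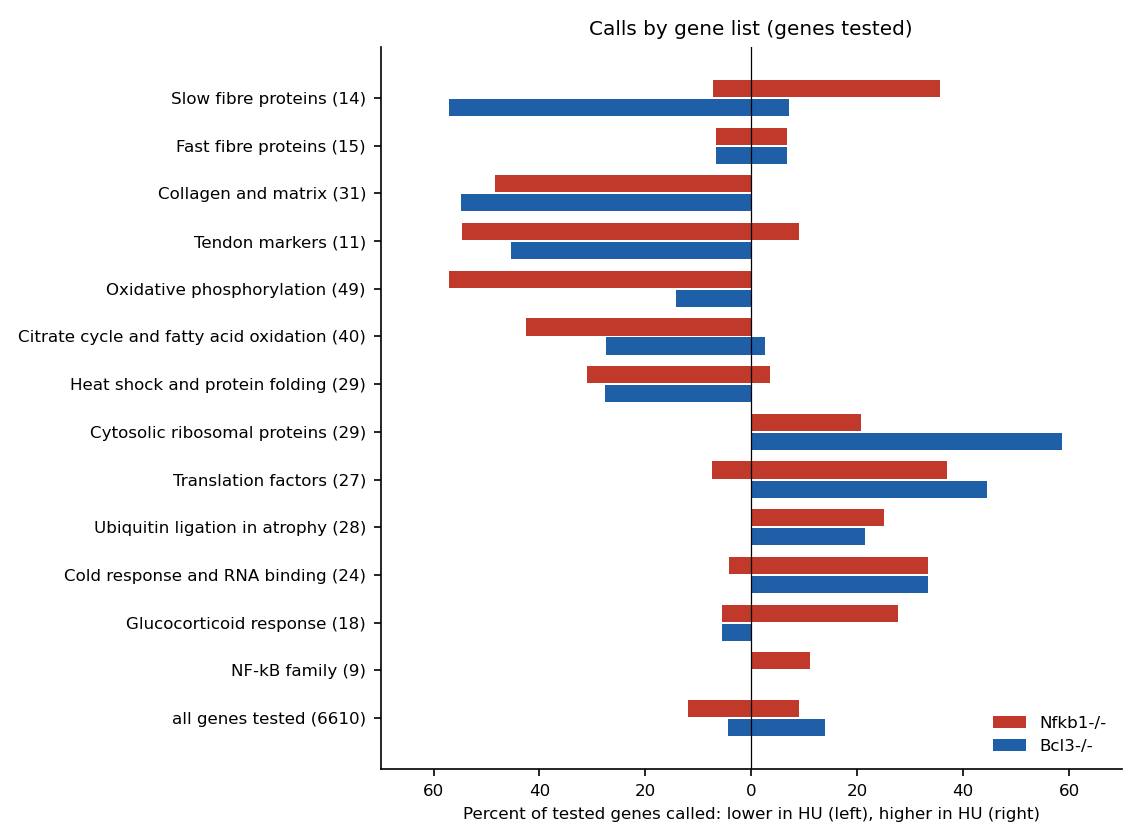
Percent of the tested genes of 13 lists, and of all 6610 genes, called lower (left) or higher (right) in HU than in WB muscles of Nfkb1-/- (red) and Bcl3-/- (blue) mice, with the number tested in brackets. Of the 14 slow fibre proteins, 5 are higher in Nfkb1-/- and 8 lower in Bcl3-/- muscles, while calls of collagen, tendon, oxidative and chaperone genes are mostly lower in both knockouts and those of ribosomal, translation and ubiquitin genes mostly higher.

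**Figure D5:**
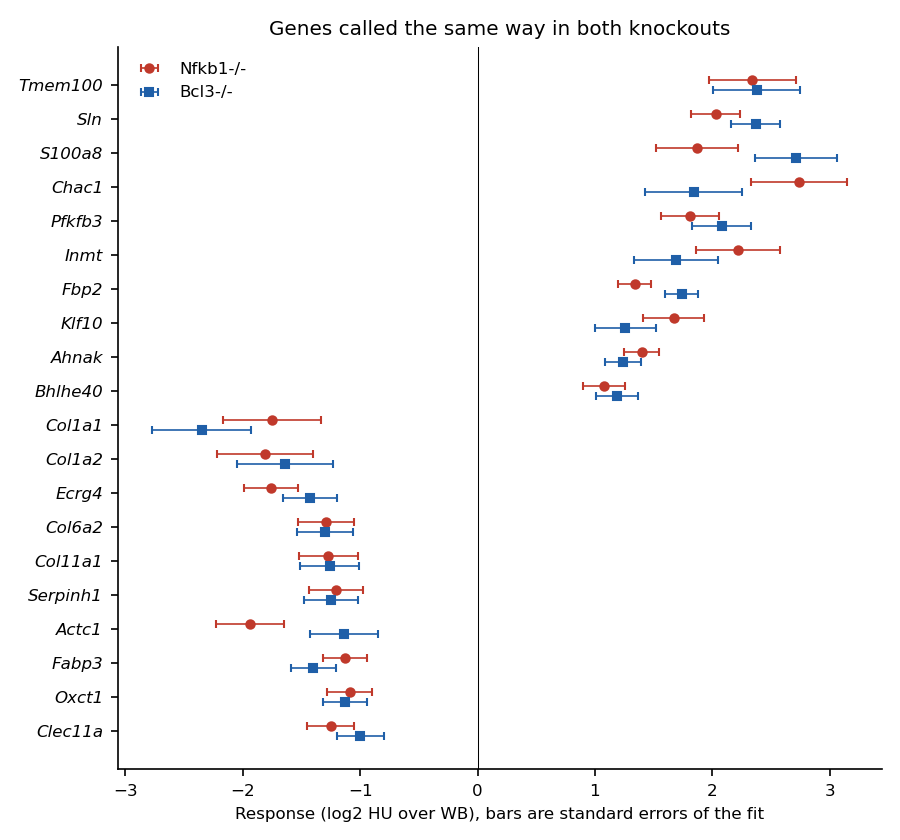
Responses (log2 HU over WB) of the 20 genes with the largest smaller response among those called the same way in both knockouts with HU and WB arrays apart, in Nfkb1-/- (circles) and Bcl3-/- muscles (squares), with standard errors of the fit. Sln and Tmem100 lie above 2 in both, and Col1a1 and Col1a2 lie below -1.6 in both.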

How the data were processed

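The authors labelled RNA of 1 mouse per array with a 2-cycle kit, read the scanner files into GenePattern and deposited linear intensities per probe set after RMA and quantile normalization. Whether the 2 knockouts were processed in separate runs is not given in the sources used here. Of 22690 probe sets, 64 controls were left out. Tests were run on the 10618 probe sets brighter than the array median on 4 or more of the 8 arrays of each knockout. GEO's platform annotation gave 1 gene for 9782 of these (6610 genes), several for 382 and none for 454.

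Log2 intensities of the 16 arrays were fitted with 1 mean per group in limma 3.58.1 in R 4.3.3 (12 residual and 4.68 prior degrees of freedom), with contrasts for each response and for their difference, two-sided. The alternatives changed the filter, the scaling, the variance model, the pseudocount, the test and the arrays included. Those without arrays of low weight were chosen after the data were seen. Other tables were made with Python 3.11.15 (pandas 2.3.3, numpy 2.4.6, matplotlib 3.10.9). A response was called at a Benjamini-Hochberg adjusted p under 0.05 over all tested probe sets. In lists a gene stands for its probe set of highest mean, and elsewhere for the probe set that the naming rule chose. Named genes are the 10 largest shared responses of each direction with arrays apart, up to 10 opposite ones of each pattern, the 10 largest differences of each sign, up to 4 members of each list and the NF-kB family. Other members of the slow fibre list, and the macrophage and tendon genes, were named after their values were seen. The comparison, the lists and the genes were chosen with earlier results of these data known, so list counts are descriptions.

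In simulated data on 10618 probe sets with the 16 arrays, 25 opposite changes were set at each fold. They were called in both knockouts in 0% of cases at 1.2-fold, in 68% at 1.5-fold and in 88% at 2-fold. The simulated noise was independent and of equal spread on every array, whereas the weights of the real arrays ran from 0.2656 to 3.5967. Far fewer probe sets were changed in the simulation than were called in the real data, so the adjustment of p was stricter there. These percentages therefore hold for that setting only. The 4 arrays per group limit the precision of every value. Muscle mass, PCR and binding assays were not analysed here.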

Additional observations from a re-analysis of the deposited data

Results flagged for a closer look

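The responses of the 2 knockouts differed, by the test of the difference, for 441 probe sets. Among the named genes the Nfkb1-/- response was above the Bcl3-/- response for the slow fibre genes Myl2 (log2 difference 2.71), Tnni1 (1.67), Tnnc1 (1.55), Myh7 (1.31), Atp2a2 (1.22) and Tpm3 (1.18). It was also above for Bdh1 (2.34), Slc9a3r2 (1.42), Lgals3 (1.30), Pde4b (1.30), Tmem140 (1.25), Gadd45a (1.07), Mtm1 (0.99), Mustn1 (0.96), Mylk2 (0.89), Chrne (0.80) and Chrnb1 (0.53).

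It was below for the genes called in opposite directions, Dusp10 (-1.37), Wnk1 (-1.29), Hdlbp (-1.05), Trps1 (-1.05), Taok1 (-1.04), Apbb2 (-1.02), Exoc7 (-0.86), Tmem167 (-0.82), Ebpl (-0.79) and Tlcd4 (-0.70). It was below as well for Klk1b16 (-2.02), Aqp4 (-1.46), Sspn (-1.34), Srsf3 (-1.27), Norad (-1.21), Azin1 (-1.19), Ighm (-1.15), Ccnd2 (-1.13), Bst2 (-0.85), Hspb3 (-0.76) and Irgm1 (-0.52).

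One array stood far from the other 3 of its group in 16 of 292 groups of 4, over the 73 named genes, and chance alone flags about 1 group in 20. In Nfkb1-/- HU muscles Myl2 read 456 on replicate 1 against 1367 to 1695 on the others, and Tnmd 91.3 on replicate 2 against 147 to 161. In Nfkb1-/- WB muscles the lone values were 337 for Tpm3 on replicate 1 (494 to 533 on the others), 24.3 for Acvr2b on replicate 2 (26.7 to 27.1), and on replicate 3 19.6 for Srsf3 (27.3 to 29.2), 178 for Serpinh1 (241 to 253) and 188 for Rora (144 to 150).

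In Bcl3-/- HU muscles they were 20.1 for Bdh1 on replicate 1 (36.1 to 36.8), 947 for Hsp90aa1 on replicate 3 (798 to 821), and on replicate 4 181 for Klk1b16 (402 to 430) and 710 for Serpinh1 (366 to 409). In Bcl3-/- WB muscles they were 6014 for Hadh on replicate 2 (5151 to 5166), 173 for Sspn (98.8 to 105) and 75 for Norad (54.7 to 56.7) on replicate 3, and 329 for Bdh1 (372 to 374) and 6427 for Col1a2 (8611 to 8786) on replicate 4.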

How the results depend on the processing

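No response or difference of a named gene that was called changed direction under any alternative. Values that were not called did so in 111 cases, over 26 responses or differences, among them the Bcl3-/- response of Klk1b16 (0.06, and -0.15 without Bcl3-/- WB replicate 1) and the Nfkb1-/- response of Myl2 (0.19, and -0.01 without Nfkb1-/- HU replicate 2). Over the alternatives other than leaving out 1 array, named genes kept their side of the threshold in 3058 cases, lost a call in 290 and gained one in 20, and with 1 array left out in 3232, 265 and 7.

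The Nfkb1-/- count (2180) was 3330 with array weights, 913 at a fold of at least 1.4 and 3596 without the 4 arrays of lowest weight. The Bcl3-/- count (2000) was 1268 in a separate fit, 858 with the methods' t-test after Benjamini-Hochberg adjustment, 732 at that fold and 1001 without the 2 Bcl3-/- WB arrays of lowest weight. The shared count (575) was 1161, 176, 214 and 1081 with array weights, the t-test, the fold and without 4 arrays, and 149 when the larger of the 2 p-values was adjusted. The opposite count (26) was 10 with no filter, 13 with a floor of 20, 12 in separate fits and 4 with that t-test. It was 8 at the fold, 45 without 4 arrays and 1 with the larger p. The t-test with q-values, which the paper's methods name, gave 2986 calls for Nfkb1-/-, 1659 for Bcl3-/-, 528 shared and 34 opposite. The difference count (441) was 247 with no filter, 246 with the floor, 256 with quantile normalization of all 16 arrays and 87 without 2 arrays. The correlation of the responses (0.467) was 0.38, 0.395, 0.511, 0.585 and 0.533 with no filter, the floor, a brighter filter, array weights and without 4 arrays. Alternatives without low-weight arrays were chosen after the data were seen, and the causes were not tested.

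With 1 array left out, the counts were 1347 to 2540 for Nfkb1-/-, 1032 to 2237 for Bcl3-/-, 350 to 659 shared, 10 to 55 opposite and 68 to 889 for the difference, and r was 0.41 to 0.529. The extremes were without Nfkb1-/- WB replicate 4 (1347 and 68), Bcl3-/- HU replicate 1 (1032 and 350), Nfkb1-/- WB replicate 3 (10) and Bcl3-/- WB replicate 3 (55 and 889).

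Replicate numbers name no shared animal or batch. Deviations of same-numbered HU and WB arrays correlated by 0.0133, -0.117, 0.273 and 0.169 in Nfkb1-/- mice and -0.096, 0.052, 0.0242 and -0.0822 in Bcl3-/- mice. With the replicate number as a block, the difference was called for 115 probe sets, 41 above and 74 below, and 14 and 8 went opposite ways. The share of differences above zero was 15.6%, and was 40.2% and 36.6% after quantile normalization of all arrays or within knockouts, 29.3% with array weights, 33.4% without Bcl3-/- WB replicate 4, 42.5% without 2 arrays and 66.2% without 4. Higher calls in Bcl3-/- muscles were 77.8%, and 60.8% and 61.7% after those normalizations. The 4 arrays per group and the dim probe sets left out limit what can be called.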
